A study of Mus musculus with 6 samples.

Results

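The pituitary lineage transcription factors Nr5a1, Pitx1, Lhx3, Gata2, Isl1, Foxl2, Pou1f1 and Tbx19 were examined in LβT2 cells, an immortalized mouse line of pituitary gonadotrope origin. These 8 genes were chosen by name, as factors of the gonadotrope or of another pituitary lineage, and all 8 were found by identifier among the 47069 genes of the count table. The 6 libraries were poly(A) RNA of cells at passage 14 that had been given 2 nM gonadotropin-releasing hormone (GnRH) for 40 min. In the 3 fresh libraries the pelleted cells were lysed at once, and in the 3 RNA-Best libraries they were first kept in the preservative RNA-Best at 4°C for 4 days or more. No unstimulated cells and no second cell line were among these libraries, so every level below is that of 1 GnRH-stimulated line. Whether replicates were separate cultures is not stated in the labels, and the p-values therefore measure the spread between these libraries, which may be technical.

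The anterior pituitary forms its hormone-secreting cells from a common progenitor pool, and a small set of DNA-binding factors sets which hormones each of them makes. Nr5a1 (steroidogenic factor 1, SF-1), an orphan nuclear receptor, is found in the pituitary only in gonadotropes. Pitx1 and Lhx3 are homeodomain factors needed early by most pituitary lineages and kept in the adult gland. Gata2 works in gonadotropes and thyrotropes. The LIM homeodomain factor Isl1 is found in the gonadotrope lineage but, unlike Nr5a1, not only there. The forkhead factor Foxl2 works with SMAD proteins at gonadotrope genes. Pou1f1 (PIT-1) specifies cells making growth hormone, prolactin or thyrotropin, and Tbx19 (TPIT) specifies corticotropes and melanotropes, which make proopiomelanocortin.

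Proximal promoters of gonadotropin subunit genes are where several of these factors are known to act, so those of Lhb (luteinizing hormone β) and Cga (the shared α subunit) are shown. Each runs 5′ to 3′ on the plus strand, from 10 bases before the first motif match to the base before the RefSeq start in GRCm38.p6. The Lhb stretch is chr7:45420807-45420945 and the Cga stretch is chr4:34893554-34893778. Capitals mark matches to TGNCCTTG (bound by Nr5a1), GATTA (a core bound by Pitx factors) or TAATTA (a core bound by LIM homeodomain factors), and none of these matches overlapped another.
Lhb: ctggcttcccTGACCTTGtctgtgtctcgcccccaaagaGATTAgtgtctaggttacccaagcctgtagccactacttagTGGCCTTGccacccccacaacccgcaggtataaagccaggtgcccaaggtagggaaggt
Cga: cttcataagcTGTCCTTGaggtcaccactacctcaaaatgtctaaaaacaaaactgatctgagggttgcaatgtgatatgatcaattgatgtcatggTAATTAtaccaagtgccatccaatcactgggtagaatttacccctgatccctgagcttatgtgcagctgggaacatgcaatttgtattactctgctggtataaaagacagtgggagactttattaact

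In the 250 bases before its start, Lhb held TGNCCTTG at positions -129 and -59, counted back from the start, and GATTA at -100. Cga held TGNCCTTG at -215 and TAATTA at -128. The promoter of Gnrhr, the GnRH receptor gene, held GATTA at -124 and no TGNCCTTG, and that of Fshb (follicle-stimulating hormone β) held no match. With both strands searched in 32851 mouse promoter windows of this length, TGNCCTTG occurred in 5.53%, GATTA in 19.8%, TAATTA in 4.84% and the motif of GATA factors, AGATAA, in 9.99%. At least 2 matches to TGNCCTTG, as in Lhb, occurred in 0.286% of windows. Among promoters of the factors themselves, Isl1 held GATTA at -177 and -112, and Tbx19 held GATTA with 1 match to AGATAA and 2 to TAATTA. The windows listed for Lhx3, Gata2, Foxl2 and Pou1f1 held no match. The only Foxl2 window, from chr9:98955357, lies inside the annotated gene, which starts at 98955288. The bases before that annotated start were therefore not searched. No window was listed for Nr5a1, Pitx1 or Fst, so their promoters were not searched. A match records letters in the sequence and does not show that a factor binds there.

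Sequencing depth differed between the groups. Total counts were 14477304 to 47438746 in the fresh and 4909418 to 11999363 in the RNA-Best libraries, and the fresh group had 3.99 times as many counts in all. The smallest library, RNA-Best replicate 2, still gave 1824 counts for Nr5a1 and 99 for Lhx3, and its limit for a gene with no count was 0.611 CPM (counts scaled to a library total of 1000000). Of markers of other cells, the hematopoietic gene Ptprc and the stem cell gene Sox2 were at 0 in all 6 libraries. Of the other stem and folliculostellate cell markers, Sox9 had 0.407 to 2.92 CPM and S100b 7 counts over all 6 libraries. The immune, fibroblast and erythroid lists each summed to at most 1.02 CPM in any library. The endothelial list (Cdh5, Pecam1, Plvap) summed to 197 to 199 CPM in fresh and 202 to 213 CPM in RNA-Best libraries, with all 3 genes detected. Within it Cdh5 rose by 0.12 ± 0.03 and Pecam1 fell by 0.15 ± 0.05 on the log2 scale (edgeR adjusted p = 0.00228 and 0.015), and Plvap did not pass (-0.13, adjusted p = 0.377). The Cdh5 call was lost in 3 of 18 alternatives, among them leaving out RNA-Best replicate 3 (edgeR adjusted p = 0.0694), and the Pecam1 call in 5, among them DESeq2 (adjusted p = 0.0884) and leaving out RNA-Best replicate 1 or 3 (edgeR adjusted p = 0.0802 and 0.0969). What part, if any, this list has in the members' values was not tested.

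The 6 gonadotrope factors were all expressed, and the 2 factors of other lineages were at or below 3 counts over all libraries together. On the TPM scale, which divides counts by exonic length before the same scaling so that genes can be compared, Pitx1 stood highest with 615 ± 32.4 TPM (SD, n = 6), the 165th highest of 27940 genes with a count and a known exonic length. Gata2 followed with 251 ± 4.69 TPM and Nr5a1 with 250.5 ± 11.3 TPM, in the top 1.97% and 1.99% of genes. Isl1 had 161 ± 19.5 TPM, in the top 3.42%. Foxl2 (21.9 ± 3.96 TPM) and Lhx3 (18.1 ± 1.05 TPM) stood well below these, in the top 23.3% and 25.9% of genes.

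The steps in this order were not equally clear. Pitx1 exceeded Gata2 by 2.45 ± 0.157 times, Nr5a1 exceeded Isl1 by 1.58 ± 0.258 times and Isl1 exceeded Foxl2 by 7.40 ± 0.583 times (SD over the 6 libraries), each in 6 of 6 libraries and with no overlap of TPM ranges. Gata2 and Nr5a1 could not be ordered, since their ratio ran from 0.942 to 1.07. Nr5a1 was above Gata2 in the 3 fresh libraries and Gata2 was above Nr5a1 in the 3 RNA-Best libraries. Foxl2 and Lhx3 also overlapped over the 6 libraries, with a ratio of 0.958 to 1.54. The ratio was 1.01 ± 0.0558 in the fresh and 1.42 ± 0.19 in the RNA-Best libraries (SD, n = 3). Within the RNA-Best group the TPM ranges were apart, with Foxl2 higher. Foxl2 and Lhx3 changed places when the longest transcript was used in place of the summed exons.

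**Figure D1:**
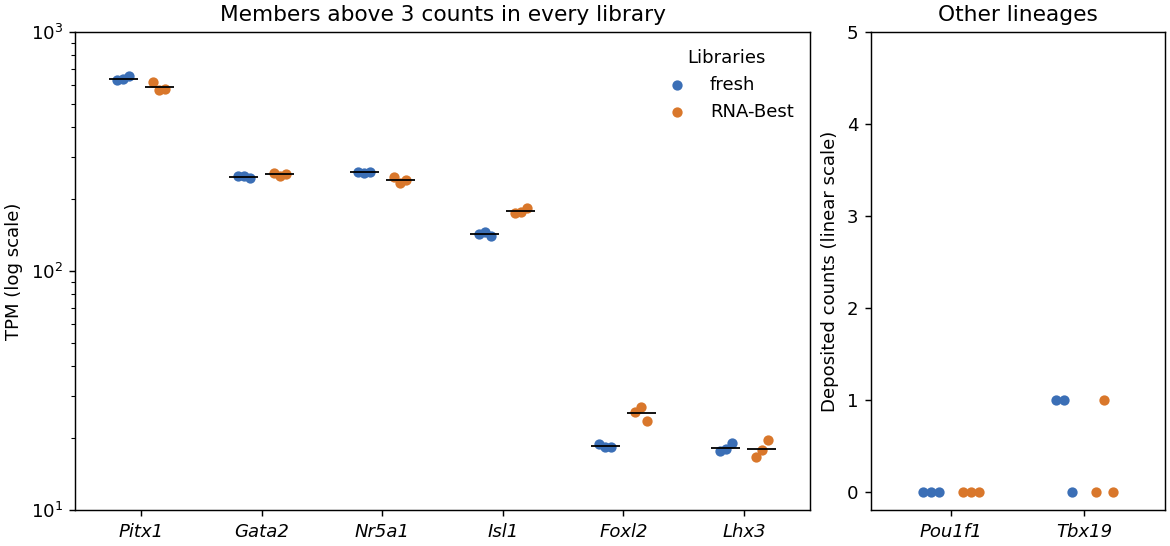
The left panel plots the level of each gonadotrope factor in TPM on a log scale, and the right panel plots deposited counts of Pou1f1 and Tbx19 on a linear scale, with 1 point per library and black lines at group means. Pitx1 lies highest at 573 to 653 TPM, Foxl2 (18.3 to 27.0 TPM) and Lhx3 (16.7 to 19.6 TPM) overlap at the lower end, and no library has more than 1 count of either factor of another lineage.

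Between the preservation groups, Nr5a1, Pitx1 and Gata2 fell and Isl1 and Foxl2 rose, with log2 fold changes of RNA-Best over fresh between -0.22 and 0.33. In all, 5 of the 6 tested factors passed the edgeR test, beside 50.8% of all 14736 genes tested. Of these, 2 were higher in RNA-Best, where the share over all genes was 26.0%, and 3 were lower, where it was 24.8%. The CPM of the groups did not overlap for 5 of the 6, against 57.5% of all genes. Against a required change of 1.2-fold (edgeR glmTreat), 0 of the 6 passed, 0 of the 6 had an unadjusted p under 0.05, and 11.5% of all genes passed. Without that requirement, 5 passed with limma-voom and 4 with DESeq2, which did not call Gata2. The median log2 fold change of all genes was -0.01, and the middle 80% of genes ran from -0.31 to 0.41, a range that held all 6 factors. In bulk RNA, fewer cells of a type and less RNA per cell cannot be told apart.

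Nr5a1, the one factor of the set restricted to gonadotropes, spans chr2:38692656-38714542 on the minus strand (GRCm38, as are all gene positions here). Its levels in the fresh libraries were 436, 435 and 439 CPM, and in the RNA-Best libraries 387, 372 and 379.7 CPM. All 3 RNA-Best libraries lay below all 3 fresh ones. The log2 fold change of RNA-Best over fresh was -0.21 ± 0.03 (SE), and Nr5a1 fell in the edgeR quasi-likelihood test (adjusted p = 5.33e-08). With counts corrected for GC content the fold change shrank to -0.11, still past the threshold (edgeR adjusted p = 0.000555).

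Pitx1, which acts with Nr5a1 and the GnRH-induced factor Egr1 on the Lhb promoter, lies at chr13:55825051-55836192 on the minus strand. It had 657, 671 and 689 CPM in fresh and 605, 568 and 574 CPM in RNA-Best libraries, again without overlap. It fell by 0.22 ± 0.03 on the log2 scale (edgeR adjusted p = 5.35e-08). A correction for gene length moved this to -0.14 (edgeR adjusted p = 5.88e-05).

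Gata2, at chr6:88193891-88207032 on the plus strand, had the smallest fitted change among the factors past the threshold. Its fresh levels were 529.8, 533 and 526 CPM and its RNA-Best levels were 512, 503 and 515 CPM. The groups did not overlap, but the log2 fold change was only -0.07 ± 0.03 and the adjusted p from edgeR 0.0344. With length correction the fall was larger, at -0.13 (edgeR adjusted p = 0.0001). The direction did not hold on every scale. In TPM, which raises every gene in the RNA-Best libraries by 0.09 on the log2 scale relative to CPM, Gata2 had 248 ± 2.19 in the fresh and 254 ± 4.34 in the RNA-Best group, and with GC correction its log2 fold change was 0.02 (edgeR adjusted p = 0.497). The call was also lost without fresh replicate 1 or 2 and without any 1 of the RNA-Best replicates, with edgeR adjusted p of 0.0625 to 0.118.

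Isl1 and Foxl2 moved the other way. Isl1, at chr13:116298281-116309689 on the minus strand, had 223, 229 and 221 CPM in fresh against 256, 260.3 and 271 CPM in RNA-Best libraries. Every RNA-Best library lay above every fresh one, and Isl1 rose by 0.21 ± 0.03 on the log2 scale (edgeR adjusted p = 4.18e-07). With GC correction the rise was 0.12 (edgeR adjusted p = 0.000608). Isl1 has the lowest GC content of the 6 gonadotrope factors, taken over the longest transcript of each, at 45.7% against 58.2% to 65.8% in the others.

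Foxl2, at chr9:98955288-98958543 on the plus strand, had the largest fitted log2 fold change of the set. It had 24.2, 23.6 and 23.6 CPM in fresh and 30.8, 32.8 and 28.6 CPM in RNA-Best libraries. The groups were apart, and the log2 fold change was 0.33 ± 0.06 (edgeR adjusted p = 3.55e-05), rising to 0.44 with GC correction. Foxl2 is overlapped head to head by Foxl2os, a noncoding transcript on the opposite strand that shares 12 exonic bases with it. Foxl2os had 67.3 ± 1.89 CPM in fresh and 95.8 ± 4.50 CPM in RNA-Best libraries (SD, n = 3), and it rose by 0.48 ± 0.04 on the log2 scale (edgeR adjusted p = 7.52e-12). Counts of Foxl2os were 2.83 ± 0.119 times those of Foxl2 in fresh and 3.12 ± 0.0701 times in RNA-Best libraries. The counting is not stated to use strand, so reads in the shared bases cannot be assigned to either gene, while the rest of each gene is separate.

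Lhx3, at chr2:26200212-26208289 on the minus strand, was the one detected factor that did not pass the test. It had 21.2, 21.7 and 23.1 CPM in fresh and 18.7, 20.2 and 22.2 CPM in RNA-Best libraries. These ranges overlapped, and the log2 fold change of -0.09 ± 0.07 did not pass (edgeR adjusted p = 0.315). Leaving out RNA-Best replicate 1 gave -0.02 and leaving out replicate 3 of that group gave -0.19, and with GC correction the sign turned to 0.02 (edgeR adjusted p = 0.867). Lhx3 had the fewest counts of the 6 factors, and its standard error was the widest.

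**Figure D2:**
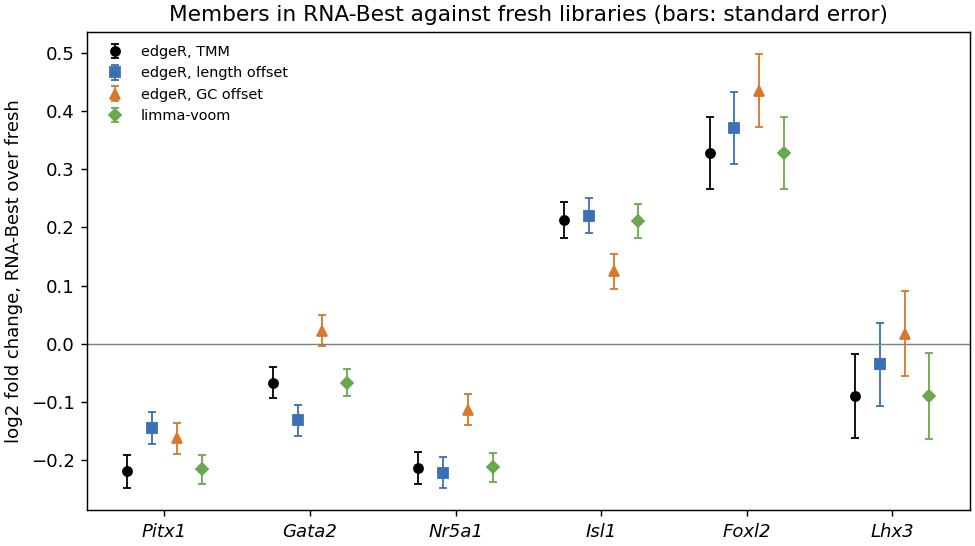
The vertical axis gives the log2 fold change of RNA-Best over fresh libraries for each gonadotrope factor, with bars of 1 standard error, from edgeR with TMM scaling, edgeR with a length or a GC offset, and limma-voom. Pitx1 and Nr5a1 stay below 0 and Isl1 and Foxl2 above 0 in all 4 fits, while Gata2 and Lhx3 cross 0 with the GC offset.

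Summed over the 6 gonadotrope factors, the fresh libraries had 1891, 1913 and 1923 CPM and the RNA-Best libraries 1808, 1755 and 1790 CPM, a ratio of 0.935. In TPM the sums were 1328 ± 9.71 and 1307 ± 33.0, a ratio of 0.985. As a description of the balance within the set, Pitx1 made up 48.2% ± 0.60 of the summed TPM in the fresh and 45.2% ± 0.848 in the RNA-Best group, and Isl1 went from 10.8% ± 0.242 to 13.7% ± 0.519 (SD, n = 3).

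The factors of other lineages were next to absent at this depth. Pou1f1, at chr16:65520511-65535005 on the plus strand, had 0 counts in each of the 6 libraries. A count of 0 in 128133221 allows up to 0.0234 CPM over the 6 libraries together, and 0.0632 to 0.611 CPM in single libraries, for counting error only. Per exonic base, Nr5a1 was at least 16640-fold higher than Pou1f1 and Lhx3, the gonadotrope factor with the lowest mean TPM, at least 1172-fold higher (3 counts allowed for Pou1f1 over all libraries).

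Tbx19, at chr1:165137855-165160773 on the minus strand, had 1 count in fresh replicate 1, 1 in fresh replicate 2, 1 in RNA-Best replicate 2 and 0 in the others. Those 3 counts amount to 0.0234 CPM, with an exact 95% Poisson interval of 0.00483 to 0.0684 CPM. Nr5a1 was 13650 times as high per exonic base, with a counting interval of 4670 to 66190. The processed pseudogene Gm16550 lies inside the span of Tbx19 on the same strand and was counted at 6.76 ± 0.784 CPM in RNA-Best and 8.16 ± 0.667 CPM in fresh libraries, without sharing exonic bases with Tbx19. Neither Pou1f1 nor Tbx19 had enough counts for the test, and the summed CPM of both was 0 to 0.0247 in fresh and 0 to 0.204 in RNA-Best libraries.

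Of hormone and receptor genes of those lineages, Prl (prolactin) and Trhr (the thyrotropin-releasing hormone receptor) were at 0 in all 6 libraries, Pomc (proopiomelanocortin) had 1 count and Gh (growth hormone) 3 counts over all 6. Tshb, the thyrotropin β subunit and a known Pou1f1 target, was present at 0.91 ± 0.14 CPM in fresh and 1.64 ± 0.563 CPM in RNA-Best libraries while Pou1f1 had no count. It rose by 0.91 ± 0.26 on the log2 scale (edgeR adjusted p = 0.0035), a call that was lost without RNA-Best replicate 1 (0.62, adjusted p = 0.147), which had the highest value of 2.28 CPM. Ghrhr, the growth hormone-releasing hormone receptor, had 27 counts in the fresh and 1 in the RNA-Best libraries (0.264 and 0.0389 CPM of the pooled counts) and was too low for the test, although without the filter on low counts it was lower in RNA-Best (-2.64 ± 1.10, edgeR adjusted p = 0.0389). Avpr1b, a vasopressin receptor of corticotropes, had 2 counts over all 6, and it and Pomc were named after their values were seen. Crhr1, a receptor for corticotropin-releasing hormone, was well above these at 14.4 TPM. It had 14.6 ± 1.33 CPM in fresh and 12.7 ± 1.48 CPM in RNA-Best libraries and did not pass (edgeR adjusted p = 0.189).

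Nr5a1, Gata2, Isl1 and Foxl2 were each the most abundant gene of their family per exonic length. Nr5a1 and Foxl2 took all counts of their families, since Nr5a2 and Foxl1 were at 0 in every library. Gata2 made up 81.9% of the GATA total in TPM (range 80.8% to 82.3%), ahead of Gata4 at 32.2 TPM and Gata6 at 23.4 TPM. Among 12 LIM homeobox genes Isl1 made up 68.9%, and Lhx3 with 7.84% came after Lmx1b at 34.2 TPM.

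Pou1f1 ranked 11th of 14 POU genes, of which the highest were Pou4f1 at 5.83 TPM and Pou2f1 (OCT-1) at 4.96 TPM, and 9 of the 14 had 3 counts or fewer in every library. Tbx19 ranked 10th of 16 T-box genes, led by Mga at 11.4 TPM, and 8 had 3 counts or fewer in every library. Of 17 tested paralogs in families other than Pitx, 4 rose in RNA-Best, 1 fell and 12 did not pass with edgeR, beside 26.0% higher and 24.8% lower over all genes. Mga, a MAX-binding T-box protein, went from 46.4 ± 0.555 to 86.4 ± 7.21 CPM (log2 fold change 0.86, edgeR adjusted p = 6.42e-17), and Pou2f1 from 24.5 ± 0.895 to 38.2 ± 0.922 CPM (0.61, adjusted p = 4.45e-11). Lmx1b (0.01, adjusted p = 0.881) did not pass. Gata4 fell by 0.12 (adjusted p = 0.048), a call lost in 16 of 18 alternatives, with adjusted p of 0.0542 to 0.277 without any 1 library other than fresh replicate 3.

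**Figure D3:**
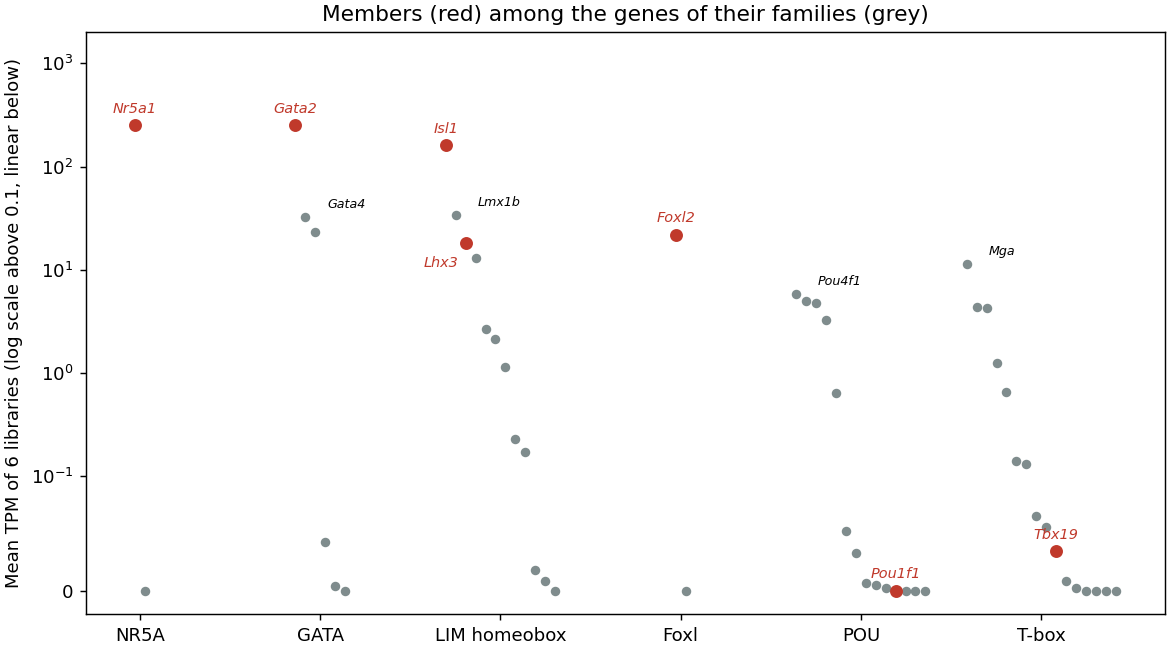
Each point is the mean TPM of 1 gene over the 6 libraries, on an axis that is logarithmic above 0.1 and linear below it, with the factors of the set in red and their paralogs in grey, sorted within each family. Nr5a1, Gata2, Isl1 and Foxl2 top their families, whereas Pou1f1 at 0 and Tbx19 at 0.0345 TPM lie in the lower part of theirs.

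Of early pituitary factors, Sox2, Otx2 and Prrx1 had 0 counts in all 6 libraries. Zbtb20, a zinc finger factor required for lactotropes, stood at 9.03 TPM. It had 78.0, 77.7 and 78.2 CPM in fresh and 134, 137 and 128 CPM in RNA-Best libraries, without overlap, and rose by 0.75 ± 0.04 on the log2 scale (edgeR adjusted p = 3.85e-18). Six6, a homeobox factor of the gland primordium, stood at 28.1 TPM and did not pass (edgeR adjusted p = 0.0824).

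Among 9 other differentiation factors, 6 were tested, 2 fell, 0 rose and 4 did not pass with edgeR (median -0.15), beside 24.8% of all genes lower and 26.0% higher. With length correction 3 of the 6 fell. Nr4a1, an immediate early nuclear receptor, was the most abundant at 1125 TPM and fell by 0.17 ± 0.03 (edgeR adjusted p = 9.01e-06). Insm1, a zinc finger factor of endocrine cells, stood at 267 TPM and fell by 0.14 ± 0.03 (edgeR adjusted p = 0.000121), a call lost with GC correction (-0.03, adjusted p = 0.373). Pax7, a factor of melanotropes, was at 0 in all 6 libraries.

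Of 17 cofactors and partners of the set 16 were tested, 4 rose, 5 fell and 7 did not pass with edgeR (median -0.03), beside 26.0% of all genes higher and 24.8% lower. With length correction 1 rose and 7 fell. Nr0b1 (DAX-1), a repressor that binds Nr5a1, had 221, 229 and 223 CPM in fresh and 193, 189 and 187 CPM in RNA-Best libraries. It fell by 0.26 ± 0.03 (edgeR adjusted p = 1.53e-08), as did Nr5a1. Lmo1, a LIM-only protein, fell by 0.28 ± 0.04 (edgeR adjusted p = 6.28e-08) and Ssbp4, of a family that binds the LIM cofactor Ldb1, by 0.24 ± 0.03 (edgeR adjusted p = 5.21e-08). Egr1, the most abundant of these genes at 342 TPM, rose by 0.06 ± 0.03 (edgeR adjusted p = 0.0475), a call lost in 11 of 18 alternatives, with adjusted p of 0.0706 to 0.223 without any 1 library other than RNA-Best replicate 3. Ctnnb1 (β-catenin), at 299 TPM, did not pass (edgeR adjusted p = 0.0808).

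Of 5 gonadotrope genes downstream of these factors, Fshb and Fst (follistatin, an activin-binding protein that limits Fshb expression) were at 0 in all 6 libraries. Cga, whose promoter holds 1 match to TGNCCTTG in the stretch printed above, was higher than any member at 4413 TPM. It had 1815, 1792 and 1831 CPM in fresh and 1419, 1410 and 1448 CPM in RNA-Best libraries, and it fell by 0.36 ± 0.03 on the log2 scale (edgeR adjusted p = 7.56e-14). Gnrhr had 123, 125 and 109 CPM in fresh and 173, 160.3 and 158 CPM in RNA-Best libraries and rose by 0.43 ± 0.04 (edgeR adjusted p = 5.66e-11). Lhb, with 2 matches to TGNCCTTG, had 28.1, 27.3 and 25.1 CPM in fresh and 27.7, 29.7 and 27.6 CPM in RNA-Best libraries. These overlapped, and Lhb did not pass (log2 fold change 0.03 ± 0.06, edgeR adjusted p = 0.775), although with length correction it did (0.16, adjusted p = 0.0365).

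**Figure D4:**
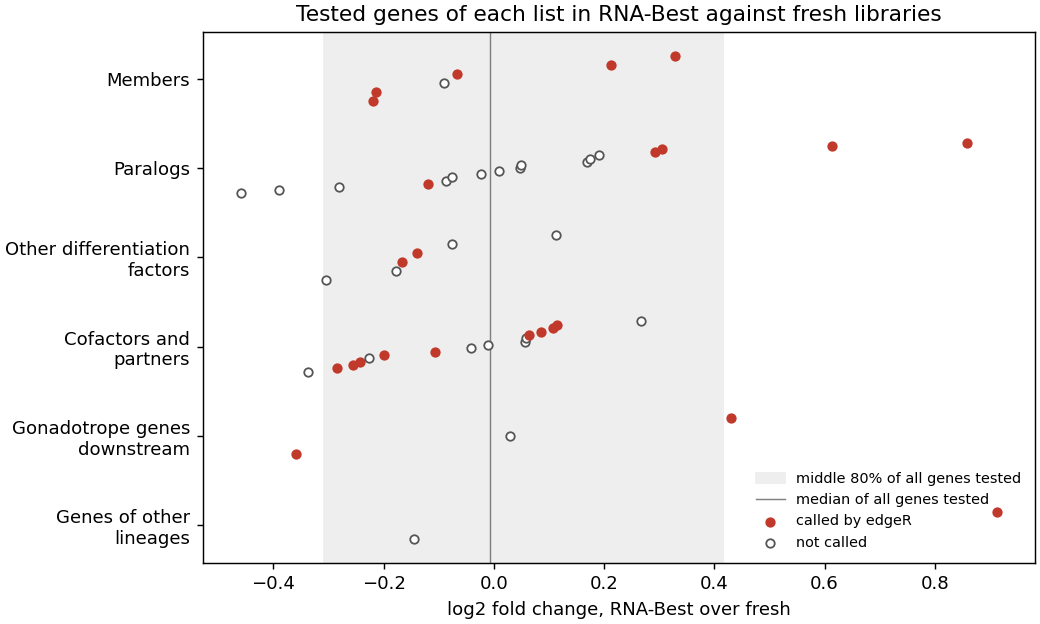
The horizontal axis gives the log2 fold change of RNA-Best over fresh libraries for each tested gene of the lists shown, filled where edgeR called it, with the grey band covering the middle 80% of all genes. The 6 members lie inside the band, between -0.22 and 0.33, while of the called genes Mga, Pou2f1, Gnrhr and Tshb lie above it and Cga lies below it.

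Other transcripts overlapping members had few counts beside them. Nr5a1os (0 shared exonic bases, 0.0117 ± 0.00093 times the counts of Nr5a1 in fresh), Gm27196 (188 bases opposite Lhx3, 0.0363 ± 0.00999 times) and Gm28760 (108 bases within Pitx1 on the same strand, 0.011 ± 0.000966 times) were the ones counted. Gm47071 and Gm49631, annotated opposite Pitx1 and Pou1f1, were not analysed here. Nr5a1 had parts of counts in 4 of 6 libraries, Pitx1 and Gata2 in 1 each and the other members in none.

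The genes whose log2 CPM tracked each factor most closely over the 6 libraries were Gm8797 and Rnd2 for Nr5a1 (Pearson r = 0.999 for both), Senp3 and Coprs for Pitx1 (0.998 for both) and B3gnt6 and Rcbtb2 for Gata2 (0.999 for both). Gm15899 and Stag1 were closest to Isl1 (0.996 and 0.995), Gm10052 and Gm10603 to Foxl2 (0.999 for both), and Zfp87 and Zbtb8os to Lhx3 (0.999 and 0.993). The 6 points share the 2 groups and their depth, and r exceeded 0.9 for 13.3% to 16.4% of all tested genes with each of the 5 called factors and for 1.16% with Lhx3.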

How the data were processed

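Single reads of 6 poly(A) RNA libraries were aligned by the authors to GRCm38 (mm10) with STAR 2.5.1b and counted over GENCODE genes with featureCounts 1.5.0-p1. They deposited unscaled estimated counts for each gene, of which 9.36% to 16.3% per library were not whole (tolerance 0.001). The setting that divided reads and the use of strand are not given in the sources used here, so genes with near-identical copies or overlaps are uncertain.

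Counts were rounded and fitted for all genes with edgeR 4.0.16 (R 4.3.3; TMM, filterByExpr with a minimum count of 10, quasi-likelihood test, Benjamini-Hochberg adjustment, 5% false discovery rate), after tests on simulated data. The alternatives were limma 3.58.1 voom (the study's method), DESeq2 1.42.0, glmTreat against 1.2-fold, other scalings and filters, loess offsets for length or GC content (span 0.5), thinning, a replicate block and leaving out each library. CPM used column totals. TPM used exonic lengths from a newer GENCODE annotation of GRCm38, in which 46574 of 47069 genes were found by identifier. Promoters came from RefSeq (GRCm38.p6), and only bases before the start were used. Mean ± SD is over libraries, and fold changes carry standard errors.

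The members and lists were chosen with earlier results of these data known. Named were all members, per list up to 3 called genes of largest fold change and 4 of highest TPM, listed genes at 0, overlapping genes, and the 2 closest by correlation (log2 CPM, prior count 2). Some listed genes are not reported here.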

Additional observations from a re-analysis of the deposited data

How the results depend on the processing

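Under 18 alternatives, Nr5a1 (-0.26 to -0.11), Pitx1 (-0.27 to -0.14), Isl1 (0.12 to 0.23) and Foxl2 (0.28 to 0.44) kept their direction on the log2 scale and their call, except with glmTreat, which called 0 members and 1693 genes in place of 7479. Gata2 (-0.13 to 0.02) lost its call in 10 alternatives and turned to 0.0229 with the GC offset. Lhx3 was called by no alternative and turned to 0.0174 with the same offset. The share of called genes that were higher was 51.2%, but 42.6% without a filter, 41.2% with the length offset and 75.4% with glmTreat. With a replicate block, 7472 genes and 5 members were called, and it changed no member's call. Deviations of same-numbered libraries correlated at -0.01 to 0.01, which gives no sign of pairing by number but cannot exclude it. The spread between RNA-Best libraries was close to counting noise (chi-square per gene 1.10 to 1.30), which could hide a pairing. Leaving out single libraries gave 6357 to 7273 called genes, 4 to 5 called members and a summed CPM ratio of 0.929 to 0.943, which was 0.985 in TPM. The log2 ratio of Pitx1 to Lhx3 was 5.08 in TPM, 4.89 in CPM and 4.75 with the longest transcript. The smallest library held 99 counts of Lhx3 and 161 of Foxl2, and with all libraries thinned to its total Foxl2 kept its call (0.33, edgeR adjusted p = 0.00769).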
